A study of Drosophila melanogaster with 8 samples.

Results

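The 10 genes described here are the receptor Egfr and genes that feed it, read it out or restrain it: the ligand gene spi, the ligand-processing genes rho and S (Star), the ETS factor genes pnt and aop, and the antagonist genes aos, sty, kek1 and Cbl. They were taken by symbol, and all 10 matched 1 FlyBase identifier each among the 15682 in the count tables. RNA was sequenced from pools of 30 to 50 eye discs, the sacs of larval epithelium from which the eye and antenna of the adult fly form, taken in the third larval instar. There were 8 libraries, 2 biological replicates from each of 4 stocks kept at 25 °C. Canton S is a wild-type strain, mir-11 KO(w-) is referred to as the knockout, and RMCE-1 and RMCE-2 carry an RMCE label, usual shorthand for exchange of a cassette by a recombinase, at the neighbouring microRNA genes mir-11 and mir-998. Which sequences the RMCE stocks carry, and in which stock miR-998 was unchecked, the sources used here do not give. The stocks other than Canton S may differ from it in more than the microRNA region, such as strain background, and such differences cannot be told apart from it.

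In flies a single EGF receptor, Egfr, signals through Ras and MAP kinase. Its main ligand in the eye, Spitz (spi), is made as a membrane-bound precursor that Star carries out of the endoplasmic reticulum and Rhomboid (rho) cuts. Active MAP kinase turns the ETS activator Pointed (pnt) on and removes the ETS repressor Anterior open, also called Yan (aop). The signal induces its own brakes, and in the eye disc it is known for recruiting photoreceptors around each founder cell, keeping cells alive and spacing the clusters. Cbl, a ubiquitin ligase that marks the receptor for degradation, is reported as a target of miR-998, the microRNA named in the study's title.

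Total counts ran from 11929158 to 19670470 per library, and every member had at least 614 reads in each library. Levels are given as CPM, counts scaled to a common library total. All 8 eye identity genes checked, among them so, eya and dac, had reads in every library, and so did all 8 antennal genes checked, such as Dll and ct. The eye identity genes summed to between 932 and 1083 CPM and the antennal genes to between 1150 and 1376 CPM. The material thus held both parts of the disc, but the sums do not show an even composition across stocks. Of the antennal sum, hth made up 750 to 916 CPM. Against Canton S, edgeR put dan and danr higher in knockout discs (log2 fold change 0.48 and 0.38, adjusted p = 0.00642 and 0.0299). It put ct lower there (-0.39, adjusted p = 0.0268). In RMCE-1 discs dan was higher (0.39, edgeR adjusted p = 0.013) and ct lower (-0.62, adjusted p = 0.0057). RMCE-2 discs had no antennal gene under 0.05. RMCE-1 replicate 2 stood apart: 7 fat body genes summed to 8438 CPM in it against 64.4 CPM in replicate 1, 12 salivary gland genes to 4656 against 43.0 CPM, and 11 heat-inducible chaperone genes to 8383 against 2547 CPM. Canton S replicate 1 had the next highest salivary sum, 2225 CPM, and RMCE-2 replicate 2 the next highest fat body sum, 2055 CPM. Hsp70Aa, 1 of the chaperone genes, read 972 CPM in RMCE-1 replicate 2 and 176 and 23.3 CPM in the RMCE-2 libraries. It ran from 2.37 to 5.06 CPM in the remaining libraries. The mir-11 row held 0 to 2 reads per library, Canton S included, and the mir-998 row 9 to 31 reads, so neither checks the stock labels; such libraries do not measure mature microRNAs.

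Scaled for gene length, spi was the most abundant member and Cbl the least. As CPM per kb of merged exons, averaged over the 8 libraries, spi stood at 103, Egfr at 53.6, kek1 at 46.2, aop at 29.6, sty at 28.9, rho at 24.2, S at 22.7, aos at 17.6, pnt at 12.6 and Cbl at 9.46. The libraries of spi lay wholly above those of Egfr, with a lowest value of 97.4 against a highest of 57.7 CPM per kb. Neighbours in this order that overlapped between libraries were Egfr and kek1, aop and sty, sty and rho, and rho and S. With the length of the longest transcript in place of all exons, sty passed aop (36.7 against 32.7) and pnt passed aos (19.0 against 17.6). For 7 of the 10 genes the highest library was 1.11 to 1.23 times the lowest. The exceptions were rho (1.62 times), kek1 (1.48 times) and aos (1.47 times).

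**Figure D1:**
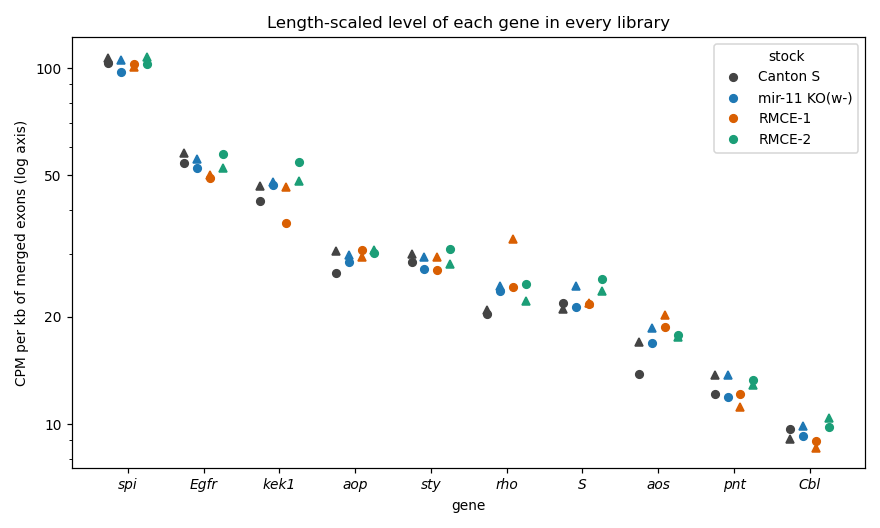
Level of each gene per kb of merged exons (vertical log axis, CPM per kb) in the 8 libraries, coloured by stock, with circles for replicate 1 and triangles for replicate 2. The genes are ordered by mean from spi (103) to Cbl (9.46), and neighbours from aop to S share part of their range. The rho point of RMCE-1 replicate 2 (33.1) stands above the other 7 of that gene.

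Egfr (FBgn0003731, 2R 21522420 to 21559977, plus strand, in BDGP6.54) encodes the receptor. In the order replicate 1 and replicate 2, as throughout, Egfr read 376 and 401 CPM in Canton S discs, 363 and 387 in knockout discs, 342 and 348 in RMCE-1 discs, and 399 and 365 in RMCE-2 discs. Both RMCE-1 libraries lay below the other 6, which overlapped one another. RMCE-1 was 345 ± 4.2 CPM (SD, n = 2) against 388 ± 17.4 CPM in Canton S, a log2 fold change of -0.17 (SE 0.07, 95% interval -0.33 to -0.01; edgeR adjusted p = 0.199). Egfr was called in none of the 6 comparisons, where called means a Benjamini-Hochberg adjusted p under 0.05 from edgeR's quasi-likelihood test over 11068 genes. In RNA of whole discs, here and below, a change in the number of cells of a type and a change in RNA per cell cannot be told apart.

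Cbl (FBgn0020224, 3L 8424954 to 8432246, plus strand) is the reported miR-998 target. Cbl read 59.6 and 56.0 CPM in Canton S discs, 57.0 and 60.7 in knockout discs, 55.3 and 52.7 in RMCE-1 discs, and 60.5 and 63.9 in RMCE-2 discs. The RMCE-1 libraries were the lowest of the 8. RMCE-2 lay above Canton S and RMCE-1 but overlapped the knockout stock. Against Canton S the log2 fold change was 0.03 in the knockout stock (95% interval -0.13 to 0.19), -0.10 in RMCE-1 (-0.26 to 0.06) and 0.11 in RMCE-2 (-0.05 to 0.27). These intervals reach down to 0.835-fold and up to 1.2-fold, so differences in Cbl messenger beyond that size lay outside them. With Canton S replicate 1 and RMCE-1 replicate 2 both left out, the RMCE-1 value was -0.02. The widest gap was between the RMCE stocks, 62.2 ± 2.38 CPM in RMCE-2 against 54.0 ± 1.84 CPM in RMCE-1 (log2 fold change 0.21, SE 0.07, interval 0.04 to 0.37). It was not called (edgeR adjusted p = 0.209).

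The annotation gives Cbl a short and a long transcript with separate ends. Cbl-RA has 1344 coding bases and a 3′ UTR of 1246 bases, and Cbl-RB has 2634 coding bases and a 3′ UTR of 1910 bases. The deposited counts are per gene, so a shift between these forms, or an effect of a microRNA on protein without one on messenger, was not measured.

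The ligand gene spi (FBgn0005672, 2L 19567900 to 19577315, minus strand) was the steadiest member. spi read 187 and 194 CPM in Canton S discs, 177 and 192 in knockout discs, 186 and 183 in RMCE-1 discs, and 186 and 196 in RMCE-2 discs. Its highest library was 1.11 times its lowest, and its 6 log2 fold changes lay between -0.05 and 0.05 with 95% intervals within -0.20 and 0.20.

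S encodes Star, the transporter of the Spitz precursor (FBgn0003310, 2L 1049674 to 1077815, minus strand). S read 114 and 110 CPM in Canton S discs, 111 and 127 in knockout discs, 113 and 114 in RMCE-1 discs, and 133 and 123 in RMCE-2 discs. Both RMCE-2 libraries exceeded both Canton S and both RMCE-1 libraries, and knockout replicate 2 lay between the RMCE-2 pair. RMCE-2 was 128 ± 7.19 CPM against 112 ± 2.93 CPM in Canton S, a log2 fold change of 0.20 (SE 0.08, interval 0.01 to 0.39) that was not called (edgeR adjusted p = 0.225). The knockout stock against Canton S was at 0.09, and at 0.18 without knockout replicate 1 and -0.0036 without replicate 2.

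The protease gene rho (FBgn0004635, 3L 1463811 to 1468944, plus strand) varied most. rho read 61.3 and 62.8 CPM in Canton S discs, 71.0 and 73.2 in knockout discs, 72.8 and 99.2 in RMCE-1 discs, and 74.3 and 66.3 in RMCE-2 discs. Canton S held the 2 lowest libraries, and RMCE-1 replicate 2 stood alone above a band that ended at 74.3 CPM. RMCE-1 at 86.0 ± 18.7 CPM against 62.1 ± 1.1 CPM in Canton S gave a log2 fold change of 0.47 (SE 0.14, interval 0.14 to 0.80), which was not called (edgeR adjusted p = 0.106).

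Against Canton S the log2 fold change of rho was 0.22 in the knockout stock (interval -0.11 to 0.55) and 0.18 in RMCE-2 (-0.15 to 0.51). Neither was called (edgeR adjusted p = 0.425 and 0.542), and these comparisons share their Canton S libraries. The size of the RMCE-1 value, though not its sign, rested on 1 library. Without RMCE-1 replicate 2 the log2 fold change of RMCE-1 against Canton S was 0.23. Without replicate 1, which leaves replicate 2 as the only RMCE-1 library and assumes that it varies as the other stocks do, it was 0.69 and was called (edgeR adjusted p = 0.00944). In that same fit rho was called higher in RMCE-1 against the knockout stock (0.47, edgeR adjusted p = 0.0436) and lower in RMCE-2 against RMCE-1 (-0.51, adjusted p = 0.0316). These were the only calls of a member in the main fit and its 16 alternatives. RMCE-1 replicate 2 is also the library with the high fat body, salivary gland and heat-inducible chaperone sums given above, and their part in its rho level was not tested.

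**Figure D2:**
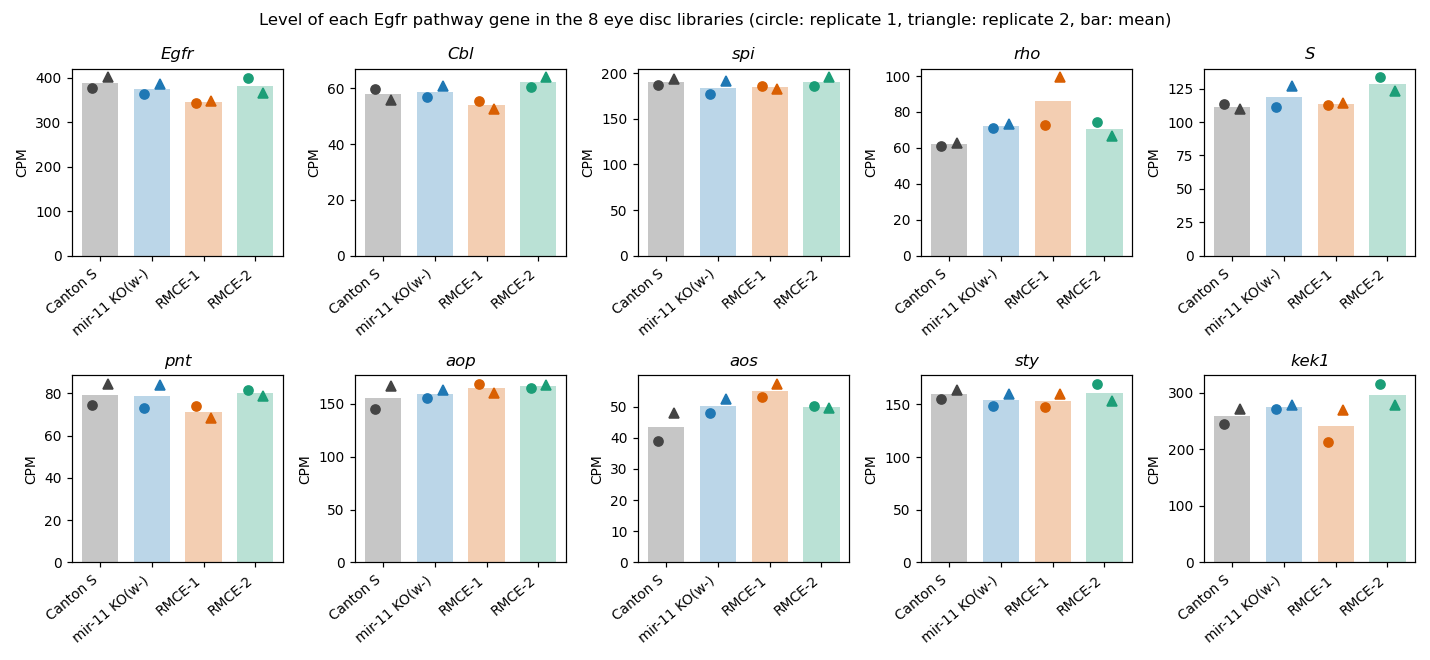
CPM (vertical axes from 0) of each of the 10 genes in the 2 libraries of each stock, with circles for replicate 1, triangles for replicate 2 and bars for the stock mean. The stock means of a gene differ little, with the widest excursions being rho at 99.2 CPM in RMCE-1 replicate 2 and kek1 between 213 and 315 CPM.

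The gene pnt (FBgn0003118, 3R 23290231 to 23346167, minus strand) encodes the activator. pnt read 74.5 and 84.3 CPM in Canton S discs, 73.1 and 83.9 in knockout discs, 74.2 and 68.3 in RMCE-1 discs, and 81.5 and 78.8 in RMCE-2 discs. Both RMCE-1 libraries lay below both Canton S and both RMCE-2 libraries, by a small margin for replicate 1. The log2 fold changes of RMCE-1 were -0.16 against Canton S (interval -0.38 to 0.07) and -0.14 against the knockout stock, and neither was called (edgeR adjusted p = 0.367 and 0.71). The value against the knockout stock was -0.24 without knockout replicate 1 and -0.04 without replicate 2. Between the knockout stock and Canton S pnt was at -0.02, and at -0.12 without Canton S replicate 1 or knockout replicate 2 and 0.08 without knockout replicate 1. The 4 annotated pnt transcripts include forms that differ at their starts and are known to be regulated differently, which counts per gene cannot separate.

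The gene aop (FBgn0000097, 2L 2156484 to 2178754, minus strand) encodes the repressor. aop read 145 and 167 CPM in Canton S discs, 156 and 163 in knockout discs, 168 and 160.5 in RMCE-1 discs, and 165 and 168 in RMCE-2 discs. Canton S replicate 1 was the lowest library, and the rest fell within a narrow band. Its 6 log2 fold changes lay between 0.02 and 0.09, none called. Against Canton S they were 0.03 for the knockout, 0.08 for RMCE-1 and 0.09 for RMCE-2, and their sign hung on 1 library. Without Canton S replicate 1 they were -0.08, -0.02 and -0.01, and without replicate 2 they were 0.13, 0.18 and 0.20, none called. It was the only member whose exons overlap another annotated gene: 307 bases, or 5.63% of its merged exons, are shared with CG15382 on the opposite strand, to which 14 to 27 reads per library were assigned.

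Argos (aos, FBgn0004569, 3L 16470386 to 16483650, minus strand) is a secreted protein that sequesters Spitz, and its gene is a standard readout of the pathway. aos read 39.0 and 47.9 CPM in Canton S discs, 47.8 and 52.4 in knockout discs, 53.0 and 57.1 in RMCE-1 discs, and 50.2 and 49.6 in RMCE-2 discs. The lowest library was Canton S replicate 1, and the 2 highest were those of RMCE-1. Against Canton S at 43.4 ± 6.3 CPM, the log2 fold change was 0.21 in the knockout stock (interval -0.04 to 0.46), 0.34 in RMCE-1 (0.09 to 0.59) and 0.20 in RMCE-2 (-0.05 to 0.45). None was called (edgeR adjusted p = 0.32, 0.115 and 0.355), and the 3 comparisons share their Canton S libraries. Without Canton S replicate 1 they were 0.05, 0.20 and 0.06, and without replicate 2 they were 0.36, 0.50 and 0.35, again not called.

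Sprouty (sty, FBgn0014388, 3L 3401153 to 3424935, minus strand) is an intracellular feedback inhibitor. sty read 155 and 164 CPM in Canton S discs, 148 and 160 in knockout discs, 147 and 160 in RMCE-1 discs, and 169 and 153 in RMCE-2 discs. The stocks overlapped in every pairing, and the log2 fold changes lay between -0.05 and 0.07 with intervals within -0.24 and 0.26. With Canton S replicate 1 and RMCE-1 replicate 2 both left out, RMCE-1 against Canton S went from -0.05 to -0.16.

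Kekkon 1 (kek1, FBgn0015399, 2L 12817000 to 12822787, minus strand) is a transmembrane protein with leucine-rich repeats that binds the receptor and is induced by it. kek1 read 246 and 271 CPM in Canton S discs, 272 and 278 in knockout discs, 213 and 269 in RMCE-1 discs, and 315 and 278 in RMCE-2 discs. Both RMCE-2 libraries lay above the other 6, knockout replicate 2 by less than 1 CPM (278.2 against 277.5). RMCE-2 at 296 ± 25.8 CPM against 241 ± 39.4 CPM in RMCE-1 gave a log2 fold change of 0.30 (SE 0.12, interval 0.02 to 0.58), which was not called (edgeR adjusted p = 0.283). It was 0.13 without RMCE-1 replicate 1 and 0.48 without replicate 2.

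Taking the 10 genes as a group, edgeR called 0 in each of the 6 comparisons, and DESeq2 also called 0 in each. Over all genes tested, the shares called were 4.75% for the knockout stock, 6.06% for RMCE-1 and 3.6% for RMCE-2 against Canton S. They were 0.352% for RMCE-1 and 0.578% for RMCE-2 against the knockout stock, and 1.68% for RMCE-2 against RMCE-1. At such shares 10 genes would hold fewer than 1 call, so the count of 0 is close to the background and is not a result about the pathway. At an unadjusted p under 0.05 edgeR counted 0, 3, 1, 0, 0 and 2 members in the same order, where 20.9%, 23.2%, 19.4%, 9.03%, 13.2% and 16% of all genes passed. The 3 in RMCE-1 were Egfr, rho and aos, the 1 in RMCE-2 was S, and the 2 between the RMCE stocks were Cbl and kek1.

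What the data do set is a bound on how far these transcripts moved. The 95% intervals of a member's log2 fold change reached from 0.15 to 0.33 to either side of the estimate. All 10 intervals lay within 1.5-fold either way for the knockout stock and RMCE-2 against Canton S and for both RMCE stocks against the knockout stock. For RMCE-1 against Canton S 8 did, the exceptions being rho and aos with upper ends of 1.74-fold and 1.51-fold. Between the RMCE stocks 9 did, the exception being rho with a lower end of 0.65-fold. The intervals are not adjusted for the number of genes.

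The median size of a member's log2 fold change, without its sign, was 0.05, 0.10, 0.10, 0.12, 0.06 and 0.16 in the same order of comparisons. Over all genes tested it was 0.17, 0.20, 0.17, 0.12, 0.15 and 0.16, and over the 3518 genes at or above the mean level of the lowest member, aos, it was 0.11, 0.12, 0.11, 0.08, 0.09 and 0.10. The members' medians thus lay below those of genes of like level in the 3 comparisons with Canton S and in RMCE-2 against the knockout stock, and above them in both remaining comparisons. Libraries of both stocks stood apart without overlap for 2, 6, 5, 4, 2 and 7 members, where 59.3%, 51.7%, 51.4%, 39.5%, 50.3% and 41.8% of all genes did.

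**Figure D3:**
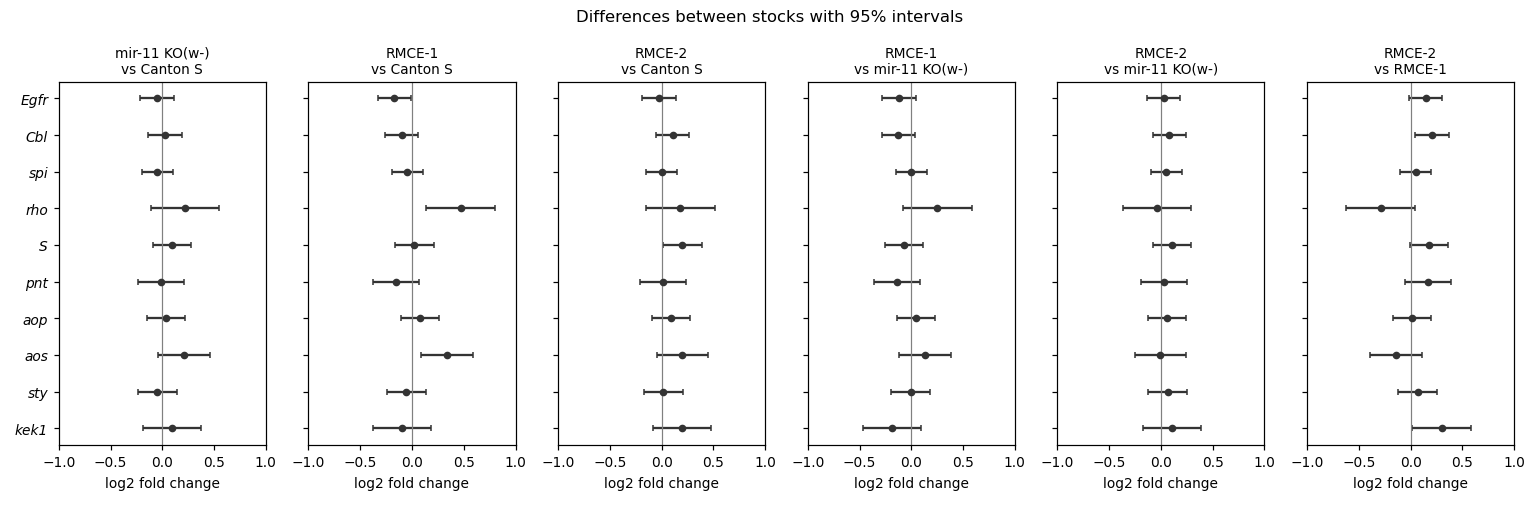
Log2 fold change of each gene (horizontal axes, first stock over second) in the 6 comparisons, with points for the edgeR estimate and bars for its 95% interval, not adjusted for multiple tests. Most bars cross 0, and the widest are those of rho, which reach 0.80 for RMCE-1 against Canton S.

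Ratios within a library do not depend on how libraries are scaled. The ratio of the activator pnt to the repressor aop, in CPM per kb, was 0.457 and 0.451 for Canton S, 0.418 and 0.458 for the knockout, 0.393 and 0.379 for RMCE-1, and 0.44 and 0.419 for RMCE-2. Both RMCE-1 libraries had the lowest ratios of the 8. The ratio of the antagonist aos to the ligand spi was 0.134 and 0.159 for Canton S, 0.174 and 0.176 for the knockout, 0.183 and 0.201 for RMCE-1, and 0.174 and 0.163 for RMCE-2. Canton S held its 2 lowest values and RMCE-1 its 2 highest. Cbl to Egfr ranged from 0.158 in Canton S replicate 2 to 0.197 in RMCE-2 replicate 2, with the stocks overlapping. The ratio of sty to Egfr lay between 0.522 and 0.549 in 7 libraries and at 0.588 in RMCE-1 replicate 2. That of rho to S lay between 0.934 and 1.12 in 7 libraries and at 1.51 in RMCE-1 replicate 2. With 2 libraries a stock these ratios are descriptions and were not tested.

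**Figure D4:**
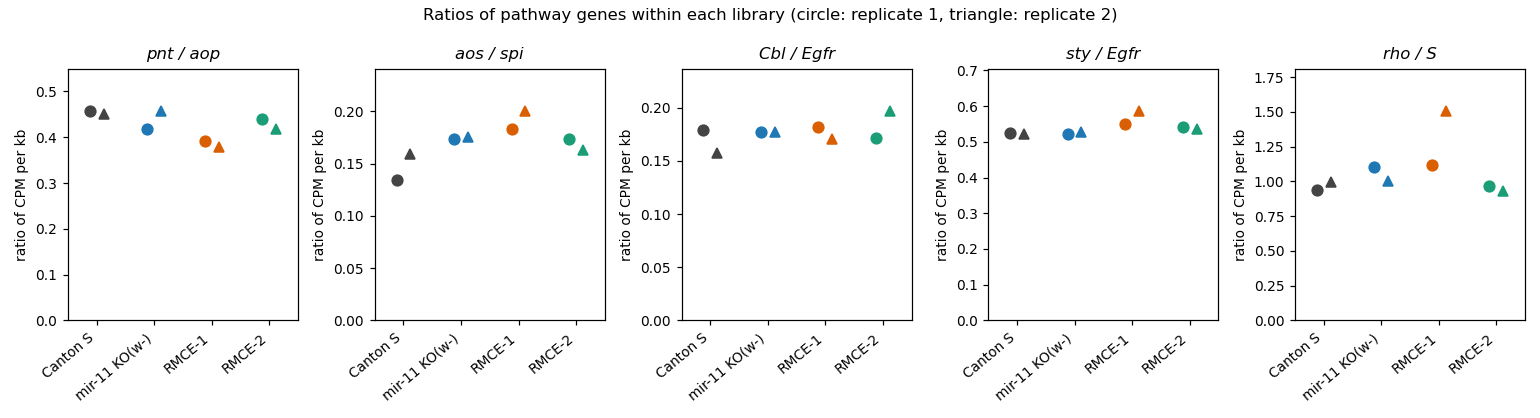
Ratio of CPM per kb between paired pathway genes in each library (vertical axes from 0), with circles for replicate 1 and triangles for replicate 2 of each stock. RMCE-1 holds the lowest pnt to aop ratios (0.393 and 0.379) and the highest aos to spi ratios (0.183 and 0.201), and its replicate 2 stands alone in rho to S (1.51).

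The rest of the pathway was described with 5 further lists. Of 9 listed ligand and ligand-processing genes, 7 were tested, since rho-6 had too few reads and iRhom is another name of rho-5, and edgeR called 0 in any comparison (1, 1, 0, 0, 1 and 1 at an unadjusted p under 0.05, in the order above). The most abundant were the rhomboid family genes ru, at 64.5 to 75.4 CPM, and rho-4, at 60.3 to 80.8 CPM, with rho-4 highest in RMCE-1 replicate 2. In the Ras and MAP kinase cascade all 14 matched genes were tested and 0 were called (0, 1, 2, 0, 1 and 1 unadjusted). Its largest log2 fold changes ran from -0.25 to 0.22, and the median size was 0.04 for the knockout stock against Canton S. The most abundant were 14-3-3zeta, whose product binds Raf, with 1049 to 1312 CPM, and its relative 14-3-3epsilon, with 991 to 1113 CPM.

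Among 13 genes listed as other inhibitors, kek2 was called. Its product is a relative of Kekkon 1, and whether it restrains the receptor was not tested. kek2 read 27.1 and 17.2 CPM in Canton S discs, 11.4 and 8.55 in knockout discs, 9.87 and 10.98 in RMCE-1 discs, and 13.4 and 13.2 in RMCE-2 discs. Canton S was above the other stocks in both libraries, which themselves differed by more than the other stocks' replicates. kek2 fell by 1.15 on the log2 scale in the knockout stock (SE 0.23, edgeR adjusted p = 0.0441) and by 1.09 in RMCE-1 (SE 0.23, adjusted p = 0.0467). RMCE-2 had a log2 fold change of -0.74 and was not called (edgeR adjusted p = 0.146). Both calls sat at the threshold: they were lost in 11 of 16 other settings each, with edgeR adjusted p up to 0.26 and 0.178, among them every fit without a knockout, RMCE-1 or RMCE-2 library and the fit without Canton S replicate 1. Over all 16 settings the log2 fold changes ran from -1.44 to -0.78 and from -1.38 to -0.73. The other 12 genes of this list were not called in any comparison. The most abundant were ed, a cell adhesion gene whose product antagonises Egfr, with 612 to 783 CPM, and ttk, a repressor gene acting downstream, with 240 to 313 CPM.

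Of 8 genes for receptor traffic, Hrs was called in 1 comparison. Hrs sorts ubiquitinated receptors for degradation. Hrs read 69.2 and 65.2 CPM in Canton S discs, 46.1 and 51.7 in knockout discs, 47.7 and 55.2 in RMCE-1 discs, and 52.8 and 58.0 in RMCE-2 discs. Both Canton S libraries were above the other 6. Hrs fell by 0.46 on the log2 scale in the knockout stock (SE 0.10, edgeR adjusted p = 0.0489). In RMCE-1 and RMCE-2 its log2 fold changes were -0.39 and -0.28 and were not called (edgeR adjusted p = 0.0697 and 0.182). The call was lost in 10 of 16 other settings, including those without either Canton S, knockout or RMCE-2 library (adjusted p up to 0.279), with values from -0.54 to -0.38. The ubiquitin-conjugating enzyme gene eff and the dynamin gene shi, the most abundant of the list, ran from 415 to 492 and from 206 to 231 CPM over the libraries and were not called. Beside the falls of kek2 and Hrs, the summed level of 9 hemocyte markers was 616 and 876 CPM for Canton S and between 361 and 595 CPM for the other 6 libraries, with no marker at 0. In each stock 8 of the 9 lay below Canton S. Their median log2 fold change was -0.49 for the knockout, -0.48 for RMCE-1 and -1.24 for RMCE-2. Knockout discs had Pxn called lower by edgeR (log2 fold change -0.87, adjusted p = 0.0319) and NimC1 higher (1.497, adjusted p = 0.0332). RMCE-2 discs, where kek2 and Hrs were not called, had Pxn (-1.59, edgeR adjusted p = 0.00545) and eater (-1.37, adjusted p = 0.00801) called lower. RMCE-1 discs had 0 markers called against Canton S, and 1 was called lower in RMCE-2 than in RMCE-1. For fat body genes the sums were 990 and 662 CPM for Canton S against 260 and 90.9 CPM for the knockout, and for salivary gland genes 2225 and 1379 against 597 and 428 CPM. RMCE-1 had fat body sums of 64.4 and 8438 CPM and salivary sums of 43.0 and 4656 CPM, with kek2 at 9.87 and 10.98 CPM. RMCE-2 had fat body sums of 459 and 2055 CPM and salivary sums of 34.1 and 36.9 CPM. The part of such RNA in the kek2 and Hrs levels was not tested.

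Of 10 genes reported to depend on Egfr in the eye disc, sv was called in 1 comparison. It encodes a Pax factor of cone cells. sv read 23.0 and 24.5 CPM in Canton S discs, 29.1 and 29.2 in knockout discs, 27.1 and 23.5 in RMCE-1 discs, and 35.9 and 32.4 in RMCE-2 discs. The RMCE-2 libraries were the 2 highest. For RMCE-2 over Canton S, sv rose by 0.52 on the log2 scale (edgeR adjusted p = 0.0379, SE 0.10). This was lost in 9 of 16 other settings, among them those without any 1 Canton S, knockout or RMCE-2 library (adjusted p up to 0.178), with values from 0.45 to 0.60. Beside it, 2 of 9 tested markers of differentiating photoreceptors and neighbouring cells were called higher in RMCE-2 than in Canton S, where 2% of all genes were called higher: sev, the receptor gene for the last photoreceptor, and scrt, a neural factor gene. sev read 263 and 252 CPM in RMCE-2 against 177 and 193 CPM (log2 fold change 0.48, edgeR adjusted p = 0.0328). scrt read 259 and 240 CPM against 197 and 198 CPM (0.34, edgeR adjusted p = 0.039). sev was also called higher in RMCE-2 against RMCE-1, where it read 160 and 149 CPM (0.74, edgeR adjusted p = 0.0169). Of the 16 other settings, 7 lost the first sev call, 9 the scrt call and 4 the second sev call. The 9 markers, sev and scrt included, summed to 1634 and 1569 CPM in RMCE-2, above the 1291 to 1467 CPM of the other 6 libraries. Of the 9, 6 lay above Canton S in RMCE-2 and the rest below, with a median log2 fold change of 0.10. The part of these markers in the level of sv was not tested.

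The target list also held pros, which encodes a homeodomain factor of the last photoreceptor and of cone cells and is also widely used in the nervous system. pros read 247 and 80.4 CPM in Canton S discs, 142 and 27.4 in knockout discs, 31.8 and 74.1 in RMCE-1 discs, and 30.3 and 231 in RMCE-2 discs. In every stock but RMCE-1 the replicates lay further apart than any pair of stock means, and the interval for RMCE-2 against Canton S ran from -3.94 to 3.29 on the log2 scale. Delta, the Notch ligand gene and the most abundant of the list, ran from 237 to 280 CPM. It, pros and the other 7 target genes were not called in any comparison.

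**Figure D5:**
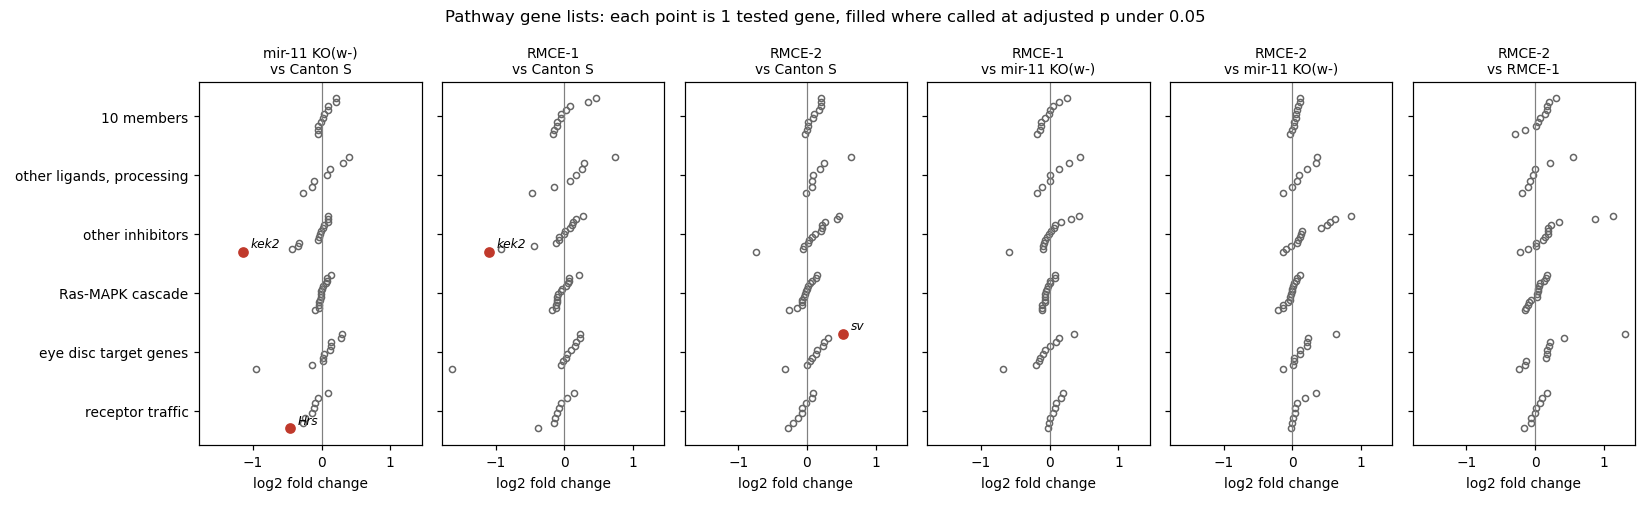
Log2 fold change (horizontal axes, first stock over second) of each tested gene of the 10 members and the 5 further lists in the 6 comparisons, 1 point a gene, filled and named where called at an adjusted p under 0.05. The filled points are kek2 (-1.15 and -1.09), Hrs (-0.46) and sv (0.52), and the member row holds none.

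As a description of pattern, genes were ranked by the mean absolute difference from a member in log2(CPM + 0.5) over the 8 libraries, each gene centred on its own mean. Compared were genes with at least 5 CPM whose stock means ranged over at least 0.5 of the member's span on that scale. The genes nearest to Cbl were lbk, Smox and Rac1, at 0.027, 0.028 and 0.029. Those nearest to aos were mal, CG3165 and Spn77Ba, at 0.024, 0.042 and 0.043. Those nearest to rho were CG13926, Ada2b and CG5664, at 0.036, 0.039 and 0.042. The 3 nearest to rho also had their highest library in RMCE-1 replicate 2, at 18.3 CPM for CG13926 against 10.3 to 12.3 CPM elsewhere, at 88.7 CPM for Ada2b against 54.2 to 61.9 CPM, and at 41.2 CPM for CG5664 against 25.0 to 33.0 CPM. The comparison ran over 7356 genes for Cbl, 5710 for aos and 4526 for rho, and no test was made.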

How the data were processed

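Raw counts of reads per gene were deposited by the authors, 1 table per library, with no normalization. Per the submitters' processing notes, TopHat2 and featureCounts of Subread are among the tools, beside CASAVA 1.8.2 and FastQC. Reads were single-end of 50 bp from directional libraries depleted of ribosomal RNA, per the labels' protocols. No build, annotation or strand setting for the counting was given in the sources used here, so overlapping genes may share reads. Positions and exon lengths are from the Ensembl 115 annotation of BDGP6.54, to which 15002 of 15682 identifiers matched.

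Tests on the deposited counts used R 4.3.3 and edgeR 4.0.16. Libraries were scaled by TMM (0.971 to 1.04), and filterByExpr kept 11068 genes, all 10 members among them, and left out 4614. The quasi-likelihood model, robust and with 4 residual degrees of freedom, had 1 mean for each stock and took in all 8 libraries. Its p-values were adjusted by Benjamini-Hochberg over every gene tested. Standard errors and 95% intervals come from the same fit, on 6.83 to 7.03 total degrees of freedom for the members. With 2 libraries a stock, each SD rests on n = 2. Replicates differed beyond sampling noise (chi-square of 9.5 to 50 per degree of freedom) and were counted separately. The steps were tested on simulated data with changes larger than any estimated for a member and with no deviating library. That test does not bear on changes of the members' size.

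The members, lists and alternatives were chosen with earlier results of these data known. Named genes were all members and, per pathway list and comparison, at most 3 called genes in order of adjusted p, or, where none was called, the 2 most abundant; for Cbl, aos and rho, the 3 genes of most similar pattern were added. The called cell type markers sev, scrt, Pxn, eater and NimC1 were named after their values were seen. So were the antennal genes dan, danr, ct and hth, and the chaperone gene Hsp70Aa. Gap1, phl and Dl were matched as RasGAP1, Raf and Delta. The symbols cnk and chp were not matched, and iRhom is a synonym of rho-5. The alternatives were DESeq2 1.42.0, other scalings and filters, a replicate block and fits with libraries left out.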

Additional observations from a re-analysis of the deposited data

How the results depend on the processing

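Recomputed in 16 other settings were the member values, the counts over all genes, and the called genes of the further pathway lists and of the photoreceptor markers. The calls of antennal genes and hemocyte markers, the ratios, the marker sums and the ranking by pattern were not recomputed in them. No member was called in any of the 6 comparisons with DESeq2, RLE scaling, library totals alone, no filter, a filter of 50 counts, only the 4 libraries compared, or with Canton S replicate 1 and RMCE-1 replicate 2 both left out. With libraries left out 1 at a time, the members called ran from 0 to 1 for RMCE-1 against Canton S, for RMCE-1 against the knockout stock and for RMCE-2 against RMCE-1, the 1 being rho without RMCE-1 replicate 1, and stayed at 0 in the other 3. Of 960 recomputed member values 58 changed sign, none of them called and none over 0.0809 in size on the log2 scale, and 47 moved by over 1 SE without a call, at most by 0.258.

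Counts over all genes moved far more. Against the main 526, 671, 398, 39, 64 and 186, in the order of the report, they ran from 65 to 1139, 136 to 884, 133 to 622, 5 to 259, 3 to 256 and 17 to 410. Leaving out knockout replicate 2 gave 65, 5 and 3, leaving out RMCE-2 replicate 1 gave 133, leaving out the pair named above gave 136, and using only the 4 libraries compared gave 17 and 1139. DESeq2 gave 884, 622, 256 and 410, and leaving out RMCE-1 replicate 1 gave 259. The causes were not tested. With the replicate number as a block they were 318, 338, 253, 16, 9 and 55, with 0 members called in each. Deviations of same-numbered libraries had correlations of mixed sign, from -0.354 to 0.324 over 8174 genes. The highest was that of Canton S with the knockout stock. These correlations cannot tell whether same-numbered libraries share a batch, and the labels give only the number. Member levels per kb with the longest transcript moved by more than the spread between replicates for 6 genes. Each member had 614 reads or more in every library, and precision rests on 2 libraries a stock.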
